A study of Rattus norvegicus with 3 samples.

Results

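The 8 genes described here, Gap43, Basp1, Sox11, Sprr1a, Stmn2, Tubb3, Ecel1 and Gal, are axon growth and regeneration genes, picked by symbol out of 32883 genes in rat retina. The identifiers are ENSRNOG00000001528 (Gap43), ENSRNOG00000046313 (Basp1), ENSRNOG00000030034 (Sox11), ENSRNOG00000024028 (Sprr1a), ENSRNOG00000011705 (Stmn2), ENSRNOG00000017209 (Tubb3), ENSRNOG00000019447 (Ecel1) and ENSRNOG00000015156 (Gal). Each symbol occurred once, and all 8 passed the filter on low counts that 15543 genes passed, a CPM (counts relative to scaled library size) of 1 or more in any of the libraries. Ecel1 passed it in HIOP and HIOP_GSK only, and Sprr1a in CTL and HIOP_GSK only. Total RNA depleted of ribosomal RNA was sequenced in 3 libraries of Sprague-Dawley retina at postnatal day 60, 1 library per group. CTL is labelled as untreated, whereas the protocol describes a sham operation with the needle in the anterior chamber at 2.66 kPa. HIOP (high intraocular pressure) was retina sampled 12 h after 60 min of ischemia, with the eye kept at 110 mmHg so that blood flow stopped, followed by reperfusion. HIOP_GSK underwent the same ischemia 24 h after a compound named only GSK had been put into the anterior chamber. No vehicle group was described, and the number of animals behind each library and the identity and dose of GSK are not given in the sources used here.

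Neurons in the peripheral nervous system that regrow a cut axon switch on a set of regeneration-associated genes, through injury-induced transcription factors such as ATF3, JUN and SOX11. These drive growth cone proteins, which tie the membrane to actin and microtubules at the axon tip, together with peptides and small stress proteins. Retinal ganglion cells, whose axons form the optic nerve, mount this programme only in part and regrow poorly. GAP43 and BASP1 are membrane-bound growth cone proteins, STMN2 a tubulin-binding stathmin and TUBB3 the neuronal beta tubulin. SOX11 is a transcription factor, SPRR1A a small proline-rich protein also found in cornified epithelium, ECEL1 a membrane protein of the endothelin-converting enzyme family induced in injured neurons, and galanin (Gal) a neuropeptide.

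Library totals were 16090064 counts (CTL), 17221510 (HIOP) and 15132754 (HIOP_GSK). Since each group is a single library, differences have no replicate check, and p-values are not given. Intervals are exact Clopper-Pearson intervals at 95% and cover counting error only. The 10 rod genes looked for summed to 29626 CPM in CTL, 27875 in HIOP and 20496 in HIOP_GSK, so the retinal label is met. Lens genes were present too, with a summed CPM of 1394 over 14 genes in CTL, 3901 in HIOP and 13977 in HIOP_GSK.

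Comparing HIOP with CTL describes the retina 12 h after ischemia. The 8 genes went in different directions. Gap43, Sox11 and Ecel1 were 3.89-fold to 6.08-fold higher in HIOP, Stmn2 was 2.10-fold lower, and Basp1 and Tubb3 were lower by less than 2-fold. Sprr1a and Gal had intervals that include no difference. Thus 3 of 8 genes were higher by 2-fold or more, where 9.0% (1399) of the 15543 genes were, and 17.0% of all genes differed by that much in either direction. On the other side 1 of 8 was lower by 2-fold or more, near the 8.04% of all genes. The median log2 ratio was -0.0092 for the 8 genes and 0.0042 for all genes, with a range over the 8 from -1.07 to 2.43. These log2 ratios use a prior count of 2, which draws low counts towards no difference, whereas the folds with intervals are plain ratios of scaled counts.

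**Figure D1:**
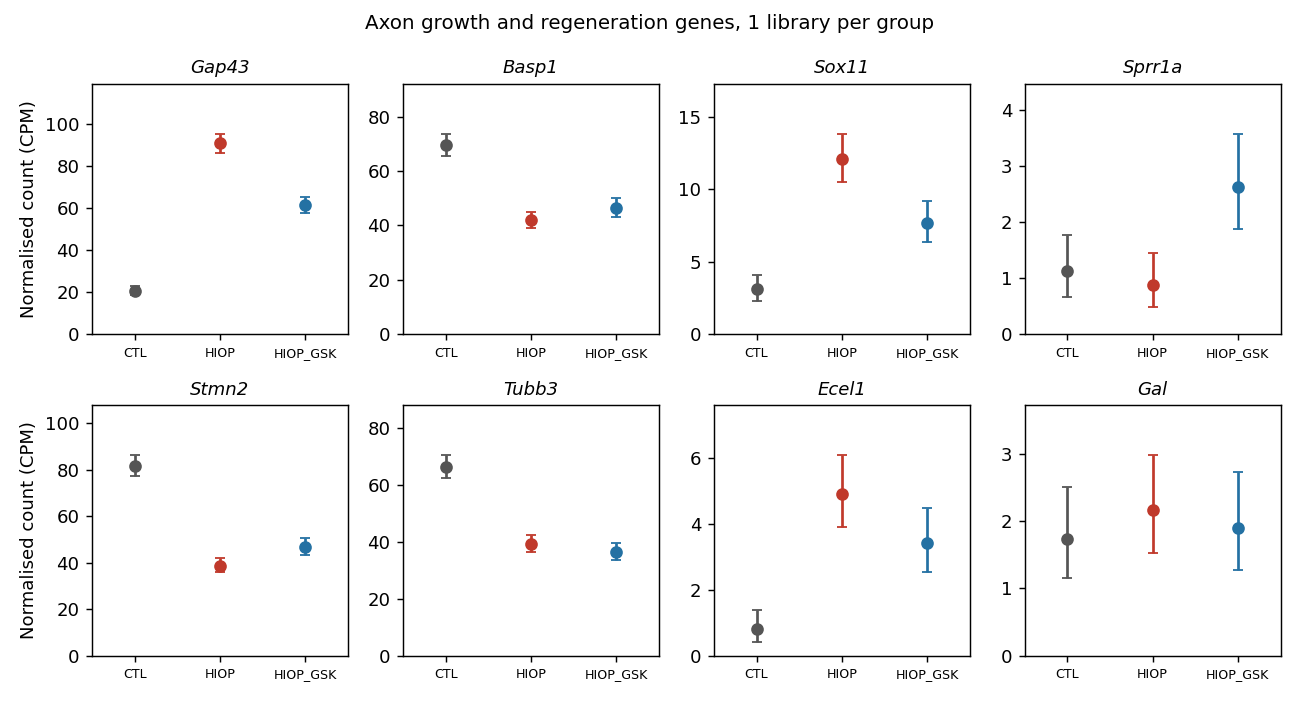
Normalised count (CPM, vertical axis from 0, a separate scale in each panel) of the 8 genes in the CTL, HIOP and HIOP_GSK libraries, with bars for the exact 95% counting interval. Gap43, Sox11 and Ecel1 are highest in HIOP, Basp1, Stmn2 and Tubb3 are highest in CTL, and Sprr1a is highest in HIOP_GSK.

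Gap43, the growth cone protein most used as a marker of axon regrowth, had 332 counts in CTL, 1550 in HIOP and 932 in HIOP_GSK. On the CPM scale this was 20.6 (18.5 to 23.0), 90.5 (86.1 to 95.2) and 61.2 (57.4 to 65.3), so the 3 counting intervals do not overlap. The library from ischemic retina without GSK was the highest and CTL the lowest. The ratio of HIOP to CTL was 4.39 (3.90 to 4.96), and only 3.12% of all genes had a higher ratio. Basp1, which like Gap43 encodes a membrane-bound growth cone protein, went the other way. Its counts were 1119 in CTL, 716 in HIOP and 705 in HIOP_GSK. It was 1.66-fold lower in HIOP (1.51 to 1.83). Its HIOP and HIOP_GSK levels, 41.8 CPM (38.8 to 45.0) and 46.3 CPM (43.0 to 49.9), have overlapping intervals, both below the 69.5 CPM (65.5 to 73.7) of CTL.

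The deposited TPM (transcript abundance per length, scaled to a fixed sum per library) allows levels of different genes to be set side by side. In CTL, Basp1 led at 98.8 TPM, followed by Stmn2 at 65.1, Tubb3 at 57.5 and Gap43 at 17.6, and the other 4 genes were at 2.65 TPM or less. In HIOP, Gap43 led at 69.1 TPM, ahead of Basp1 at 52.6, Tubb3 at 29.7 and Stmn2 at 28.2. In HIOP_GSK, Basp1 was first again at 63.7 TPM, with Gap43 at 49.7, Stmn2 at 35.0 and Tubb3 at 28.8. The 4 rarer genes, Sox11, Sprr1a, Gal and Ecel1, stayed between 0.11 and 6.74 TPM in all 3 libraries. Neighbours in this order cannot be ranked beyond error where they lie close, as Tubb3 and Stmn2 do in HIOP, since TPM has no replicate spread here. The quotient of Gap43 to Basp1 TPM was 0.178 in CTL, 1.31 in HIOP and 0.779 in HIOP_GSK. A quotient within a library does not depend on the scaling between libraries. By contrast, the quotient of Stmn2 to Tubb3 TPM, 1.13, 0.95 and 1.22 in the same order, varied less. The proportion of these neuronal cytoskeleton genes was still not constant. In scaled counts, HIOP_GSK over HIOP was 1.21 (1.09 to 1.35) for Stmn2 and 0.929 (0.829 to 1.04) for Tubb3. Gap43 made up 7.17% of the summed TPM of the 8 genes in CTL, 35.7% in HIOP and 26.2% in HIOP_GSK.

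Stmn2, the stathmin of growing and mature axons, had 1312 counts in CTL, 663 in HIOP and 712 in HIOP_GSK. The levels were 81.5 CPM (77.2 to 86.0), 38.7 CPM (35.8 to 41.8) and 46.8 CPM (43.4 to 50.4). It was 2.10-fold lower in HIOP than in CTL (1.92 to 2.31). Tubb3, widely used to stain ganglion cells and their axons, had 1065, 671 and 554 counts in the same order and was 1.69-fold lower in HIOP (1.53 to 1.86). In both genes the 2 injured libraries were below CTL, with no overlap of the counting intervals. Of 14 ganglion cell markers that passed the filter, 10 were lower by 2-fold or more in HIOP and none higher by 2-fold or more, with a median log2 ratio of -1.18 and a range from -2.72 to -0.33. The log2 ratios of Stmn2, Tubb3 and Basp1, -1.07, -0.75 and -0.73, lay inside that range, whereas those of the other 5 genes lay above all 14 markers: Ecel1 at 2.43, Gap43 at 2.13, Sox11 at 1.92, Gal at 0.29 and, just above the range, Sprr1a at -0.31. For Gal and Sprr1a this is not beyond counting error. Their intervals begin at plain ratios of 0.740 and 0.368, and the highest marker, Rbpms, had a ratio of 0.793. The summed CPM of the 15 ganglion cell markers matched was 871 (CTL), 422 (HIOP) and 453 (HIOP_GSK), with none at 0 counts in any library, and that of 11 amacrine cell markers was 1279, 568 and 699.5. Nefl, Nefm, Thy1 and Nrn1 of the ganglion cell list also sit in a pathway list. Lower values were not limited to neurons: 7 of 11 Müller glia markers were lower by 2-fold or more in HIOP and 1 higher (median -1.43), and 6 of 7 pigment epithelium markers were lower with none higher (median -1.24). Rlbp1, 5.97-fold lower, is on both of these lists and counted in each. The rod list had none beyond 2-fold and a median of -0.13. The part of these cell types in the lower counts was not tested, and fewer cells and less RNA per cell cannot be told apart in RNA of a whole retina.

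**Figure D2:**
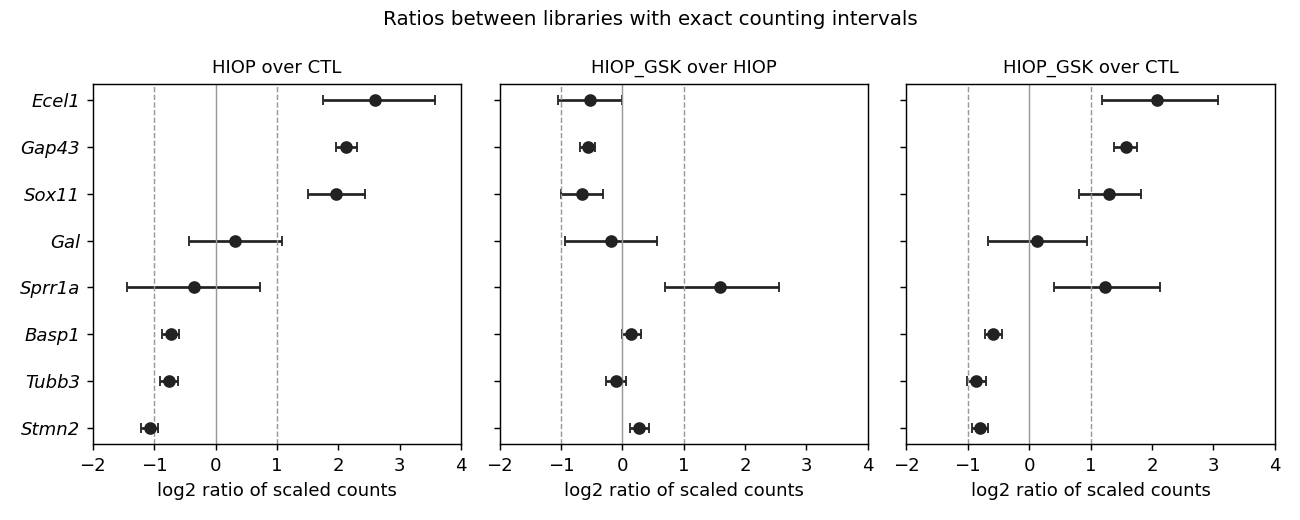
Log2 ratio of scaled counts (horizontal axis) for each of the 8 genes in HIOP over CTL, HIOP_GSK over HIOP and HIOP_GSK over CTL, with bars for the exact 95% counting interval, a solid line at no difference and dashed lines at 2-fold. In the left panel Ecel1, Gap43 and Sox11 lie right of the dashed line and Stmn2 left of it. In the middle panel only Sprr1a passes a dashed line.

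Sox11, a transcription factor of the SoxC group that promotes axon regrowth in several injury models, had 50 counts in CTL, 207 in HIOP and 117 in HIOP_GSK. The levels were 3.11 CPM (2.31 to 4.10), 12.1 CPM (10.5 to 13.9) and 7.69 CPM (6.36 to 9.22), again highest in HIOP and lowest in CTL without overlap. The ratio of HIOP to CTL was 3.89 (2.85 to 5.41). Its SoxC relative Sox12 had 478, 514 and 435 counts and a ratio of 1.01 (0.891 to 1.15). Ecel1 had 13 counts in CTL, 84 in HIOP and 52 in HIOP_GSK, or 0.808 CPM (0.430 to 1.38), 4.91 CPM (3.91 to 6.07) and 3.42 CPM (2.55 to 4.48). Both injured libraries were above CTL, and their own intervals overlap. Its ratio of HIOP to CTL, 6.08 (3.37 to 11.9), was the highest of the 8 and rests on few counts. Counts and TPM of Ecel1 do not match on the scale of most genes. It had 118, 97.7 and 91.2 counts per unit of TPM in CTL, HIOP and HIOP_GSK, where the median over genes was 32.7, 38.1 and 33.3. Sprr1a, at 6.79, 8.33 and 11.4, and Gal, at 11.2, 8.39 and 6.73, lay below that median. So did Basp1, at 11.3, 13.6 and 11.1, and also Gap43, Stmn2 and Tubb3. Counts per unit of TPM vary with gene length too, because TPM is taken per length. The deposited TPM of Ecel1, 0.11, 0.86 and 0.57, ran in the same order as its counts. The level of Ecel1, Sprr1a and Gal against other genes is uncertain, and by the same measure so is that of Basp1.

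Sprr1a, strongly induced in peripheral neurons after axon injury, was not higher in HIOP. It had 18 counts in CTL, 15 in HIOP and 40 in HIOP_GSK, or 1.12 CPM (0.663 to 1.77), 0.876 CPM (0.490 to 1.45) and 2.63 CPM (1.88 to 3.58). CTL and HIOP overlap, and the ratio of HIOP to CTL was 0.784 (0.368 to 1.65). The interval covers ratios up to 1.65, so an increase of the size seen for Gap43 lies outside it as far as counting error goes. Gal had 28, 37 and 29 counts in CTL, HIOP and HIOP_GSK, with 3 overlapping intervals (1.16 to 2.51, 1.52 to 2.98 and 1.28 to 2.74 CPM) and a ratio of HIOP to CTL of 1.24 (0.740 to 2.11). A difference in galanin was not detectable in the counts at this depth. By TPM, Gal was at 2.51 in CTL, 4.41 in HIOP and 4.31 in HIOP_GSK. These are ratios of 1.76 for HIOP over CTL and 1.72 for HIOP_GSK over CTL, so the size depends on which deposited values are used. Of the other genes on the galanin list, 4 were matched and none passed the filter. The receptor gene Galr1 had 1, 10 and 4 counts and Galr3 had 0 in each library, which allows up to 0.186, 0.175 and 0.197 CPM (3 counts).

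The 300 bases around the gene start (250 before, 50 after) of Sprr1a, Sox11 and Ecel1 are shown, because Sox11 and Ecel1 were highest in HIOP and Sprr1a was not. They are RefSeq sequences of the build GRCr8, which is not the build of the counts, and 6 of the 8 genes were matched in that table, without Gap43 and Stmn2. Capitals mark matches to the AP-1 motif TGANTCA, bound by FOS and JUN proteins. The Sprr1a stretch is chr2:180752576-180752875, the Sox11 stretch chr6:49738745-49739044 and the Ecel1 stretch chr9:95274523-95274822, each on the minus strand and printed in the direction of the gene.
Sprr1a: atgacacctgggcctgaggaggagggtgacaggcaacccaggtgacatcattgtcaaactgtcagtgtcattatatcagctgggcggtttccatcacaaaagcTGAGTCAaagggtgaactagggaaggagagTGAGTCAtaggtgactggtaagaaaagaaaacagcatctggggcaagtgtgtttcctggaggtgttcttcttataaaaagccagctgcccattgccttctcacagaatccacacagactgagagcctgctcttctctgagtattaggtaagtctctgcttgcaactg
Sox11: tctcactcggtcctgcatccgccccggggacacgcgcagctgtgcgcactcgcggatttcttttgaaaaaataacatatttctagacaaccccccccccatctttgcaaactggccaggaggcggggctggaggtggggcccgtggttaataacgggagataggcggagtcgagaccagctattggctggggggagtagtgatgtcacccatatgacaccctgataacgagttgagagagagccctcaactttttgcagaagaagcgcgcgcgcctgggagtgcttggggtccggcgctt
Ecel1: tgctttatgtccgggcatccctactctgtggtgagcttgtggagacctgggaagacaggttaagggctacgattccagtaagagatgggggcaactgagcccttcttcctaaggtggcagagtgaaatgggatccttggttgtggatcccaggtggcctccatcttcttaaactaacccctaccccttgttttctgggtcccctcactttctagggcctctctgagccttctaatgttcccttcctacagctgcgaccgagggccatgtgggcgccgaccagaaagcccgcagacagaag
Sprr1a holds the AP-1 letters 2 times, as TGAGTCA beginning 147 and 117 bases before the gene start. TGANTCA reads the same on both strands, and 7.33% of 33469 stretches of this length hold it. None of the other 5 stretches matched holds TGANTCA, and none of the 6 holds the CRE motif TGACGTCA (in 1.83% of stretches) or the STAT motif TTCNNNGAA (in 8.87%), searched on both strands. Of the 3 shown, the gene with the AP-1 letters is the one whose level in HIOP overlapped that in CTL, and Sox11 and Ecel1 have none in this window. A match in these letters is a description and does not show binding.

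Genes on the list of regeneration transcription factors, which also holds chromatin enzymes such as Hdac5, were mostly higher or little different in HIOP. Which cells their counts came from was not tested. Of 23 listed genes that passed the filter, 11 were higher by 2-fold or more and none lower by 2-fold or more, with a median log2 ratio of 0.67. Atf3 and Jun, named here as the best known of them, were, with libraries ordered as CTL, HIOP and HIOP_GSK, at 124, 1269 and 861 counts and at 834, 2457 and 1782 counts. In HIOP they were 9.62-fold (8.0 to 11.7) and 2.77-fold (2.56 to 3.00) higher. Myc, a growth regulator, had 19, 842 and 421 counts in the same order and was 41.7-fold higher in HIOP (26.5 to 69.6). Klf7, which promotes axon growth, had 345, 351 and 308 counts and was within counting error of CTL at a ratio of 0.957, and Hdac5, a histone deacetylase, was 1.63-fold lower (1.54 to 1.73). The 22 genes of axon injury signalling were nearly level with CTL, with 1 higher by 2-fold or more, none lower by 2-fold or more and a median of -0.08. The 1 gene was Il6st, the shared receptor subunit of the IL-6 family, at 2.34-fold higher (2.24 to 2.45). Nmnat2, an axon survival factor, was 1.95-fold lower (1.56 to 2.44), and Mapk10, a JNK kinase of neurons, was 1.90-fold lower (1.71 to 2.12).

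**Figure D3:**
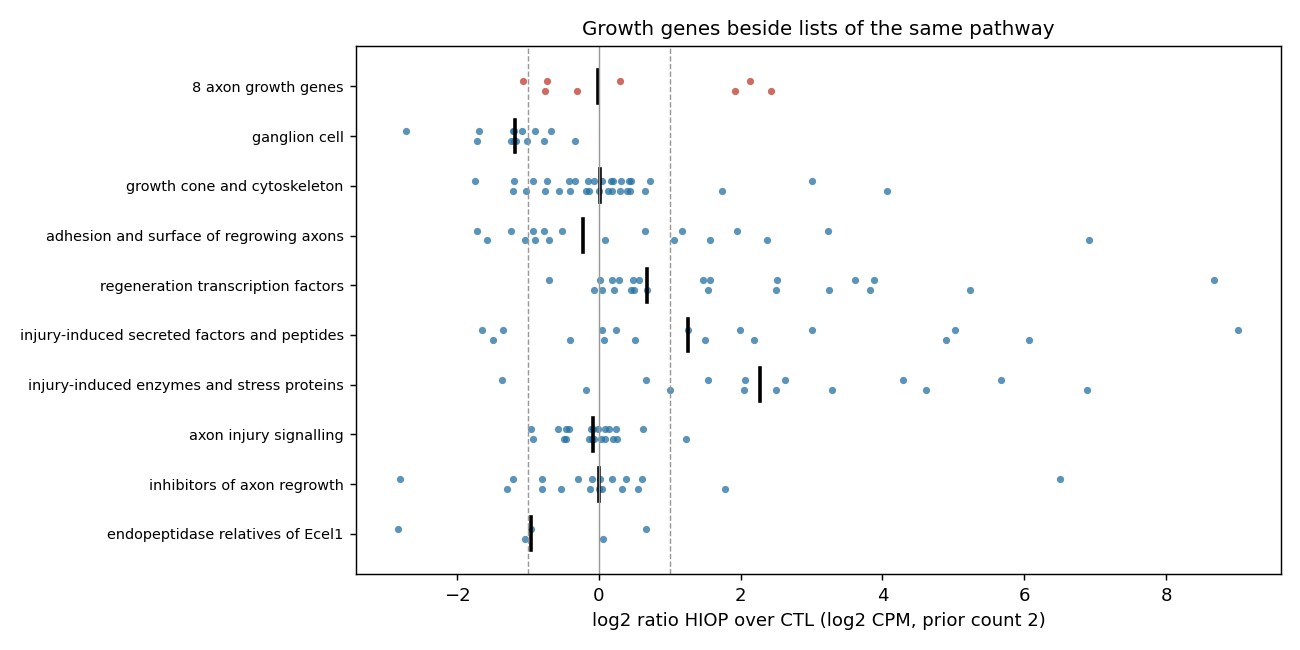
Log2 ratio of HIOP over CTL (log2 CPM with a prior count of 2, horizontal axis) of the 8 genes in red and of each list in blue, 1 point per gene that passed the filter, with a black bar at the median and dashed lines at 2-fold. The list of injury-induced enzymes and stress proteins has a median of 2.28 and the ganglion cell list one of -1.18, and the 8 genes spread from -1.07 to 2.43.

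In the growth cone and cytoskeleton list, 3 of 32 genes were higher by 2-fold or more and 4 lower by 2-fold or more in HIOP, and the median log2 ratio was 0.02. The list as a whole was thus level with CTL, unlike Gap43. The tubulins went in both directions. Members of this family share much of their sequence, so how their counts were divided is uncertain. Tubb6, with 121, 1052 and 1176 counts in CTL, HIOP and HIOP_GSK, was 8.17-fold higher in HIOP (6.77 to 9.95), and the alpha tubulin Tuba1c, with 15, 300 and 261 counts, was 18.8-fold higher (11.2 to 34.0). Tubb4a, with 1941, 613 and 561 counts, was 3.37-fold lower (3.07 to 3.69), a larger difference than that of Tubb3. Tubb2a, Tubb2b and Tubb5 were within 2-fold, at ratios of 0.904, 1.36 and 1.23. Of the stathmins, Stmn1 was 2.04-fold lower (1.87 to 2.22) and Stmn3 1.69-fold lower (1.54 to 1.86), near the values of Stmn2, and Stmn4 was 1.37-fold higher (1.21 to 1.55). Nefl, the light neurofilament, was 2.31-fold lower (2.19 to 2.44). Marcksl1, a relative of the membrane-bound group that holds GAP43 and BASP1, was picked with its values known, as the third gene higher by 2-fold or more, at 3.42-fold (2.58 to 4.59).

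**Figure D4:**
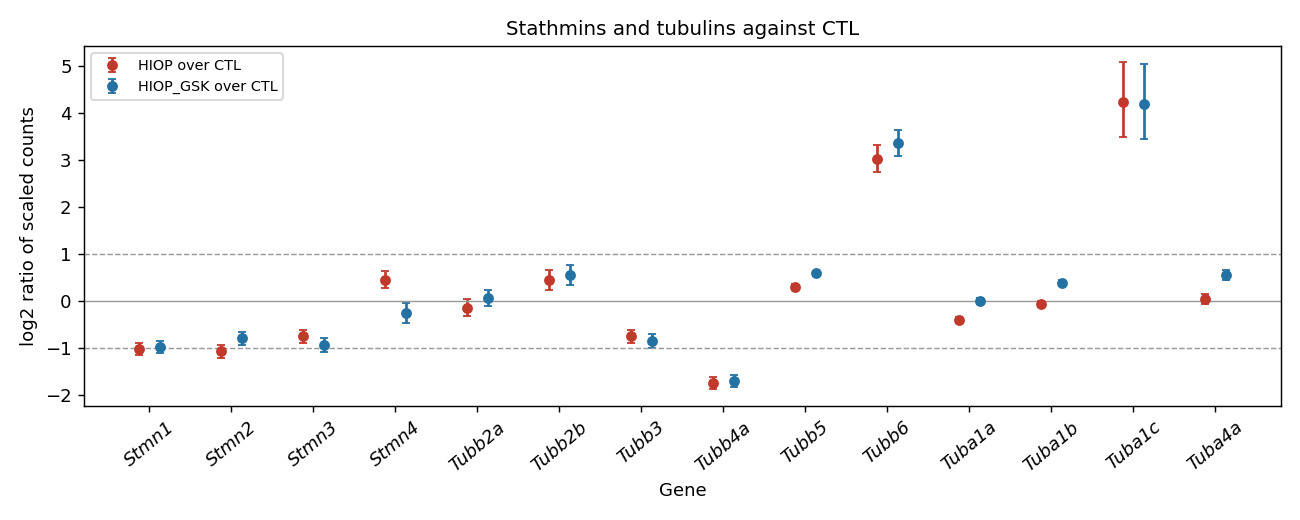
Log2 ratio of scaled counts against CTL (vertical axis) for 4 stathmin and 10 tubulin genes, in HIOP (red) and HIOP_GSK (blue), with bars for the exact 95% counting interval and dashed lines at 2-fold. Tubb6 and Tuba1c lie far above the upper dashed line in both libraries and Tubb4a below the lower one.

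Many of the surface, secreted and stress genes that follow are also made by leukocytes. The summed CPM of 8 neutrophil and monocyte markers was 1.18 in CTL, 128 in HIOP and 151 in HIOP_GSK. All 5 that passed the filter were higher by 2-fold or more in HIOP, 3 of them (S100a8, Cxcr2 and Il1r2) with 0 counts in CTL. Each of the 5 was below a CPM of 1 in CTL and passed through the injured libraries only. The filter thus favoured higher values, and their number is no separate result. The other matched genes, Fpr1, Fpr2 and Ly6c, had 3 counts or fewer in each library. The 11 microglia and macrophage markers summed to 44.9, 70.9 and 168 CPM, with 4 higher and 3 lower by 2-fold or more in HIOP. The part of these cells in the values below was not tested. Surface proteins of regrowing axons were split. Of 18 genes, 7 were higher by 2-fold or more and 4 lower by 2-fold or more in HIOP, and the median log2 ratio was -0.22. Cd44, a hyaluronan receptor, was 9.39-fold higher (8.77 to 10.1), and Plaur, the urokinase receptor, had 1 count in CTL, 381 in HIOP and 247 in HIOP_GSK. Gpm6a, a neuronal membrane glycoprotein, was 3.00-fold lower (2.84 to 3.17), and Nrn1, a membrane-anchored growth factor of ganglion cells, had 418, 133 and 147 counts. Of 17 secreted factors and peptides, 9 were higher by 2-fold or more and 3 lower by 2-fold or more, with a median of 1.25. Il6, a cytokine that can prime regrowth, had 0, 140 and 21 counts and was at least 43.9-fold higher in HIOP, against a floor of 3 counts per library. Lif, of the same receptor family and singled out after its values were seen, had 16, 619 and 262 counts and was 36.4-fold higher (22.2 to 64.0). Nts, the peptide neurotensin, was 2.96-fold lower (1.90 to 4.74), and Igf1, a growth factor, 2.58-fold lower (2.18 to 3.06).

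Of the pathway lists, injury-induced enzymes and stress proteins had the highest median, 2.28, with 11 of 14 genes higher by 2-fold or more and 1 lower by 2-fold or more in HIOP. Tnfrsf12a, a TNF family receptor that promotes neurite growth, had 18, 1081 and 553 counts and was 56.5-fold higher (35.6 to 95.6). Arg1, an arginine-degrading enzyme of the regeneration programme, had 98, 92 and 199 counts, level between CTL and HIOP as Sprr1a was. Nos1, the neuronal nitric oxide synthase, was 2.62-fold lower (2.02 to 3.42). Of 19 inhibitors of axon regrowth, 2 were higher by 2-fold or more and 3 lower by 2-fold or more, with a median of 0.0026. The higher ones were Ngfr, the p75 neurotrophin receptor, at 3.46-fold (3.09 to 3.87), and Socs3, which blocks STAT3 signalling, with 16, 1728 and 1067 counts. Among the lower ones, Omg, a myelin-associated inhibitor also made by neurons, was 7.20-fold lower (5.54 to 9.49), and Rtn4r, the Nogo receptor, 2.51-fold lower (1.75 to 3.66). Of 5 peptidase relatives of Ecel1 that passed the filter, none was higher by 2-fold or more and 2 were lower by 2-fold or more: Mme, or neprilysin, at 2.07-fold (1.70 to 2.52), and Mmel1 at 7.78-fold (4.80 to 13.3), while Ece1 had a ratio of 1.04 (0.995 to 1.10). Phex, a peptidase of phosphate balance, was 1.62-fold higher (1.08 to 2.46), on 40 counts in CTL and 69 in HIOP. Over all pathway lists, without the 8 genes, 44 of 150 genes that passed the filter were higher by 2-fold or more and 17 lower by 2-fold or more, or 29.3% and 11.3%. Of all genes, 9.0% were higher and 8.04% lower by as much. The lists were chosen with earlier results of these data known. Some of the 44, such as Il6 and Plaur, passed the filter in the injured libraries only, which favoured higher values.

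Comparing HIOP_GSK with HIOP sets the injured retina with the compound beside that without it. Gap43 was 1.48-fold lower in HIOP_GSK (1.36 to 1.61), Sox11 1.57-fold lower (1.25 to 1.99) and Ecel1 1.44-fold lower (1.004 to 2.07), the last with an interval that almost reaches 1. All 3 were higher than 2-fold over CTL in both injured libraries. Stmn2 was 1.21-fold higher with the compound (1.09 to 1.35), and Basp1 at 1.11 (0.997 to 1.23), Tubb3 at 0.929 (0.829 to 1.04) and Gal at 0.882 (0.523 to 1.47) had intervals that include no difference. Sprr1a alone of the 8 passed 2-fold, at 3.00-fold higher (1.62 to 5.85). So 1 of 8 genes was higher by 2-fold or more, beside 4.56% of all genes, and none lower by 2-fold or more, beside 1.69%, with 6.25% of all genes in either direction. The median log2 ratio was -0.14 for the 8 genes and -0.0024 for all genes.

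The higher Sprr1a value rests on 40 counts against 15 and depends on which deposited values are used. By TPM, Sprr1a was at 2.65 in CTL, 1.80 in HIOP and 3.50 in HIOP_GSK, a ratio of 1.94 for HIOP_GSK over HIOP and 1.32 over CTL, both below 2-fold. Markers of surface epithelium, where SPRR proteins are also made, moved in the same direction between the injured libraries. Of 14 that passed the filter, 11 were higher in HIOP_GSK over HIOP by 2-fold or more and none lower by 2-fold or more, with a median of 2.09. Their summed CPM over 19 matched genes was 238 in CTL, 49.2 in HIOP and 121 in HIOP_GSK. In CTL most of that sum was Krt12, at 121 CPM, and Krt5, at 54.7 CPM. In HIOP_GSK over CTL, 4 of the 14 were higher by 2-fold or more and 3 lower, with a median of 0.21. Among the Sprr relatives, Sprr1b had 0, 1 and 1 counts, Sprr3 had 1, 0 and 0, and Sprr2d had 0 in all 3 libraries. Krt16, a keratin of stressed epithelium, had 0, 3 and 48 counts, and Krt17 had 2, 5 and 29. Both reached a CPM of 1 in HIOP_GSK only, so for them the filter favoured a higher value there. Lens genes were higher in HIOP_GSK as well, 12 of 14 by 2-fold or more (1 was lower by as much) with a median of 2.31, and so were microglia and macrophage genes, 9 of 11 with a median of 1.32. Of the latter, Trem2 passed the filter in HIOP_GSK only. The part of these tissues and cells in the Sprr1a counts was not tested.

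Ganglion cell markers differed little between the injured libraries, with none of 14 at least 2-fold different and a median log2 ratio of 0.19, from -0.25 to 0.56. The ratios of Gap43, Sox11 and Ecel1, -0.56, -0.64 and -0.51, lay below all 14, that of Sprr1a, 1.46, above all 14, and those of the other 4 genes inside the range. For Ecel1 this is not beyond counting error. Its interval ends at a plain ratio of 0.996, and the lowest marker, Slc17a6, had a ratio of 0.841. Genes of Schwann cells and peripheral nerve, other possible sources of Gap43, had a summed CPM over 10 genes of 96.5 (CTL), 82.1 (HIOP) and 91.0 (HIOP_GSK), with 1 of 8 higher by 2-fold or more in HIOP, none lower by 2-fold or more and a median of -0.18. The higher gene was Egr2, a transcription factor of myelinating Schwann cells that is also an immediate early gene, with 7, 52 and 35 counts, and the myelin gene Ncmap had 0, 0 and 1. Peripheral sensory and autonomic neuron genes summed to 55.7, 47.1 and 53.0 CPM over 11 genes. Of 7 that passed the filter 1 was higher by 2-fold or more in HIOP, Calca, with 3, 132 and 145 counts. The part of these cells in the Gap43 counts was not tested. In the pathway lists, 3 of 150 genes were higher in HIOP_GSK over HIOP by 2-fold or more and 8 lower by 2-fold or more, or 2.0% and 5.33%. Of all genes, 4.56% were higher and 1.69% lower by as much. On the list of regeneration transcription factors 3 of 23 genes were lower by 2-fold or more and none higher by 2-fold or more, with a median of -0.29, and Myc was 1.78-fold lower (1.58 to 2.0). Atf3 was 1.31-fold lower (1.20 to 1.43), with an interval that overlaps that of Gap43. Il6 was 5.93-fold lower (3.73 to 9.87), and Nts, with 28 and 6 counts, 4.15-fold lower (1.69 to 12.3). Arg1 was 2.43-fold higher (1.89 to 3.15). None of the 32 growth cone and cytoskeleton genes, the 18 surface genes or the 19 inhibitors was 2-fold different in either direction.

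Comparing HIOP_GSK with CTL shares a library with each comparison above, so its values are set beside them and are not a separate line of evidence. Gap43 was 2.97-fold (2.62 to 3.38), Sox11 2.48-fold (1.76 to 3.52), Ecel1 4.23-fold (2.27 to 8.47) and Sprr1a 2.35-fold (1.32 to 4.36) higher in HIOP_GSK than in CTL. Stmn2 was 1.74-fold (1.59 to 1.91), Tubb3 1.82-fold (1.64 to 2.02) and Basp1 1.5-fold (1.36 to 1.65) lower, and Gal had a ratio of 1.10 (0.629 to 1.91). Thus 4 of 8 genes were higher by 2-fold or more, beside 10.4% of all genes, and none lower by 2-fold or more, beside 6.32%, with 16.8% in either direction. The Ecel1 ratio was 1.75 when TPM with a pseudocount of 0.5 was used, since its TPM lies near or below that pseudocount, and 5.18 from TPM alone.

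Genes with the most similar pattern were taken as those nearest in log2 CPM, centred over the 3 libraries, among 11571 named genes with at least 200 counts. With 3 libraries many genes lie close to any pattern, and the count within a distance of 0.2 shows how common each was. The minimum of 200 counts did not apply to the 8 genes. For Sprr1a, Gal, Ecel1 and Sox11 the counting error of the ratios is wider than 0.2, so their nearest genes and the number of them are uncertain. Counting error also blurs the neighbours of Gap43, whose nearest gene Klf5 had 54 counts in CTL, and those of the remaining genes. For Gap43, 26 genes lay within 0.2, led by Klf5, Rab32 and Tnip2, for Sox11 23, led by Vcan, Lmo2 and Nfkbie, and for Ecel1 17, led by Muc5b, Fosl2 and Sod2. Sprr1a had 7, led by the histone genes Hist1h2bk and Hist1h1a and by Arg1. The patterns of Stmn2, Tubb3, Basp1 and Gal were common, with 399, 596, 834 and 2712 genes as close, and their nearest genes were Wscd1, Col9a3, Acyp2 and Usp3.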

How the data were processed

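Each library's table pairs a count and a TPM with 32883 Ensembl identifiers and symbols. The deposited counts are whole numbers and not normalized, per the file headers and values. The deposited TPM sum to the same total in each library, and a TPM of 0 stands beside 20 or more counts for 566 (CTL), 545 (HIOP) and 503 (HIOP_GSK) genes, so both columns were not made by 1 quantification. STAR 2.5.4b, RSEM 1.3.1 and Rnor_6.0 are named, without roles, per the submitters' processing notes. Whether strand was used in counting is not given in the sources used here. Overlapping genes and close paralogs are uncertain.

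Counts were scaled with TMM factors (edgeR 4.0.16, R 4.3.3) of 1.000, 0.994 and 1.006. A gene was kept when its CPM reached 1 anywhere. Ratios of single genes are of scaled counts, with exact Clopper-Pearson intervals from the 2 counts (scipy 1.17.1), and lists and all genes use log2 CPM with a prior count of 2. A gene was counted as different at 2-fold. Against 0 counts, a floor of 3 counts per library was used. No molecular identifiers are described, so reads may be copies of 1 molecule. No test between groups was possible with 1 library each. The functions were tested on simulated data.

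The 8 genes, 9 pathway lists and 12 marker lists, with 302 distinct entries of which 291 were matched by symbol, were chosen with earlier results of these data known. Genes were named by a rule: from each list, the 2 highest and 2 lowest ratios of HIOP to CTL among kept genes with at least 50 counts, and relatives of the 8 genes. Genes named outside it are marked, apart from the marker genes given as counts. Not every gene that the rule allows is printed. The values of some genes are left out. Alternatives were total counts, DESeq2 1.42.0 size factors, library sizes without mitochondrial and the 20 most abundant genes, TPM with pseudocounts of 0.5 and 0.1, prior counts of 0.5 and 10, no filter, a CPM of 5 and a 1.5-fold limit.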

Additional observations from a re-analysis of the deposited data

How the results depend on the processing

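No other scaling of the counts (total counts, DESeq2 size factors or sizes without the most abundant genes) changed how many of the 8 genes passed 2-fold in any comparison. In HIOP over CTL the number stayed within 1.5 times of 4 under every alternative run. In HIOP_GSK over HIOP, where Sprr1a was the 1 gene, it was 0 with TPM at either pseudocount, 0 at a CPM of 5, which removes Sprr1a, and 2 at a 1.5-fold limit. In HIOP_GSK over CTL it was 2 with TPM and a pseudocount of 0.5, 2 at a CPM of 5, which leaves 5 of the 8 genes, and 7 at a 1.5-fold limit. Over 120 alternative ratios of single members, 111 stayed inside the counting interval, 9 moved outside it, all with TPM, and none of at least 2-fold changed direction. Over all genes, the number past 2-fold in HIOP over CTL, 2649, became 4063 without a filter and 5241 at 1.5-fold. In HIOP_GSK over HIOP, 972 became 634 with a prior count of 10, 2159 without a filter, 450 at a CPM of 5 and 2253 at 1.5-fold. In HIOP_GSK over CTL, 2606 became 4360 without a filter, 1649 at a CPM of 5 and 5324 at 1.5-fold. No paired analysis was possible because each group has 1 library, and for the same reason no library could be left out. Depth limits Sprr1a, Gal and Ecel1, with at most 84 counts in a library.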

Other observations

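Calca, which encodes the peptide CGRP of sensory neurons and also calcitonin, had a ratio of 41.4 for HIOP over CTL (13.9 to 203), while the other 6 peripheral neuron genes that passed the filter were within 2-fold. Tgm1, a transglutaminase that crosslinks SPRR proteins in cornified epithelium and is induced in injured neurons, had 13, 310 and 215 counts, whereas Sprr1a had 18, 15 and 40. Spp1, osteopontin, on the list of secreted factors, had 116, 498 and 1330 counts and was higher with GSK than without it, by 3.00-fold (2.71 to 3.34), and Gap43 was lower there. These genes were singled out after their values were seen.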
